A study of Mus musculus with 4 samples.

Results

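Fatty acid uptake and binding in brown fat was followed through 10 genes taken by name, Lpl, Gpihbp1, Lmf1, Angptl4, Cd36, Slc27a1, Slc27a4, Fabp3, Fabp4 and Fabp5, which are 10 of the 55387 gene rows of the RNA sequencing. The tissue came from 4 male C57BL/6 mice aged 15 weeks, 2 Sox4f/f controls, which carry floxed Sox4 alleles and whose genotype the labels give as wild type, and 2 Sox4-MKO mice, in which the floxed alleles were combined with Myf5-Cre. This Cre acts in precursors shared by brown adipocytes and skeletal muscle, so Sox4 was targeted in both. Each library was made from 1 mouse. The values are FPKM, the fragments sequenced per kilobase of transcript, scaled to the depth of the library, so that levels of different genes can be set side by side.

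Brown adipocytes burn fatty acids to make heat and draw much of their fuel from triglyceride-rich lipoproteins in the blood. Lipoprotein lipase (LPL) is folded with the help of LMF1, carried to the capillary surface and held there by GPIHBP1, and inhibited by ANGPTL4. The fatty acids that it releases enter the cell with the help of CD36 and of transport proteins such as FATP1 (Slc27a1) and FATP4 (Slc27a4), and are bound in the cytosol by small carriers, the FABPs. Several of these genes are known targets of the PPAR nuclear receptors.

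The largest differences lay among the carriers and among the partners of LPL. Fabp5 was 2.39-fold higher in Sox4-MKO than in Sox4f/f, whereas the mean changed by -39.1% for Fabp3, -38.4% for Angptl4, -36.1% for Lmf1 and -24.8% for Gpihbp1. Lpl, Cd36 and Fabp4 overlapped between the genotypes. By limma on log2(FPKM + 1), these 5 genes had an unadjusted p under 0.05, 4 lower and 1 higher in Sox4-MKO. Across the 12877 genes whose FPKM averaged more than 1 in some genotype, the same threshold called 16.2%, with 8.28% lower and 7.95% higher. After Benjamini-Hochberg adjustment over all tested genes limma called 0 genes, which is 0%, and the smallest adjusted p was 0.191, so no difference below passed the adjusted test. Fold changes on the log2(FPKM + 1) scale understate the change of low genes, and n = 2 mice per genotype throughout.

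Of the 10 genes, 7 had no overlap between the genotypes, 5 lower and 2 higher in Sox4-MKO, where 51.3% of all tested genes had none, 29.6% lower and 21.7% higher. The median log2 fold change of the 10 genes was -0.065, beside -0.051 over all tested genes. Their median absolute log2 fold change was 0.40, beside 0.24 over all tested genes. The signs were divided evenly, with 5 genes lower and 5 higher. The count of genes under the threshold was 3 without Sox4f/f mouse 2, and Fabp5, Fabp3 and Lmf1 were the genes that stayed. Over all genes, the same analysis called 1063 in place of 2090.

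**Figure D1:**
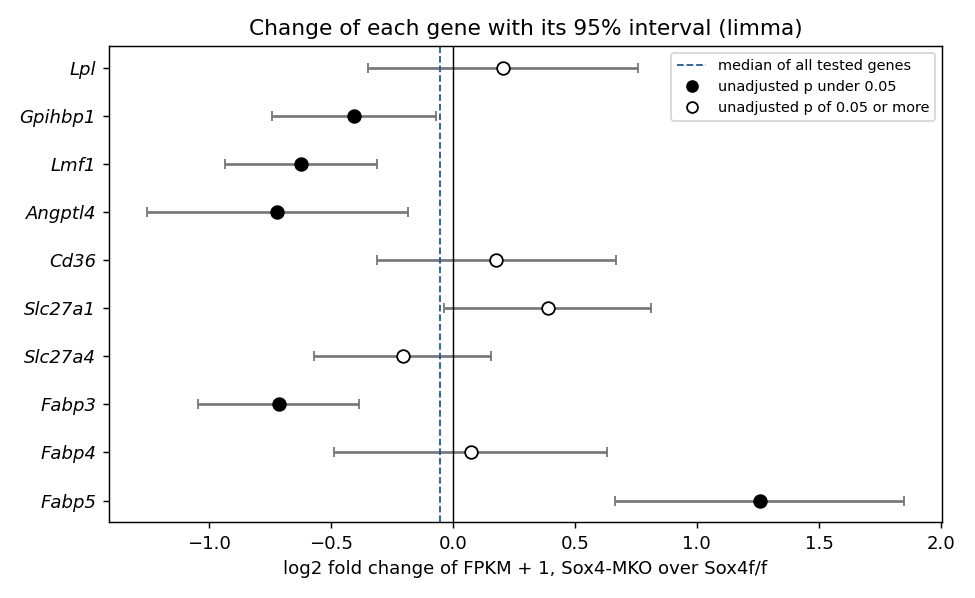
The log2 fold change of FPKM + 1 from Sox4f/f to Sox4-MKO is plotted for each of the 10 genes with its 95% limma interval (n = 2 mice per genotype). Filled points have an unadjusted p under 0.05, the dashed line is the median of all tested genes at -0.051, and Fabp5 at 1.26 is the only filled point on the higher side.

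Sox4 itself did not separate the genotypes. The controls had 1.98 and 1.06 FPKM of it and the libraries labelled Sox4-MKO 0.98 and 3.06 FPKM, with a log2 fold change of 0.20 (SE 0.43, limma adjusted p = 0.843). The sign rested on single mice, since the log2 fold change was -0.071 without Sox4f/f mouse 2 and -0.32 without Sox4-MKO mouse 2. The paper reports much less SOX4 protein in brown fat of younger Sox4-MKO mice, by western blot. The FPKM values are of RNA from the gene as a whole and do not show which part of it was transcribed. Every direction below is therefore that of the library labelled Sox4-MKO against Sox4f/f.

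The libraries also differed in markers of other cells. The 15 skeletal muscle genes of a marker list summed to 271 and 992 FPKM in Sox4f/f and to 18649 and 3658 FPKM in Sox4-MKO, that is 0.0469% and 0.182% against 3.77% and 0.775% of each library, and 14 of the 15 had an unadjusted p under 0.05, all higher. Of the 11 macrophage markers tested, 8 were higher with an unadjusted p under 0.05, and their summed level was 141 and 194 FPKM against 308 and 274 FPKM. At the same threshold, 9 of the 12 brown adipocyte markers were lower, with sums of 8827 and 8547 FPKM against 4521 and 5143 FPKM. Of the 12 endothelial markers 3 were lower, with sums of 390 and 475 FPKM against 272 and 345 FPKM, and 3 of the 10 general adipocyte markers were lower, with sums of 11885 and 11529 FPKM against 8962 and 12360 FPKM. The 5 red blood cell genes had 0 under the threshold in either direction. Over all tested genes 8.28% were lower and 7.95% higher at this threshold. Of the 6 keratinocyte genes, Krt1, Krt5 and Dsp were at 0 in all libraries, and the list summed to 0.775 and 0.691 FPKM against 1.93 and 2.13 FPKM. Its only tested gene was Trp63, at 0.193 and 0.0168 FPKM in Sox4f/f and 1.24 and 1.12 FPKM in Sox4-MKO. With means of 0.105 and 1.18 FPKM, it passed the limit for testing only through Sox4-MKO. Its direction was thus fixed by that limit, and no test is read from it. In bulk tissue, fewer cells of a type and less RNA per cell cannot be told apart.

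**Figure D2:**
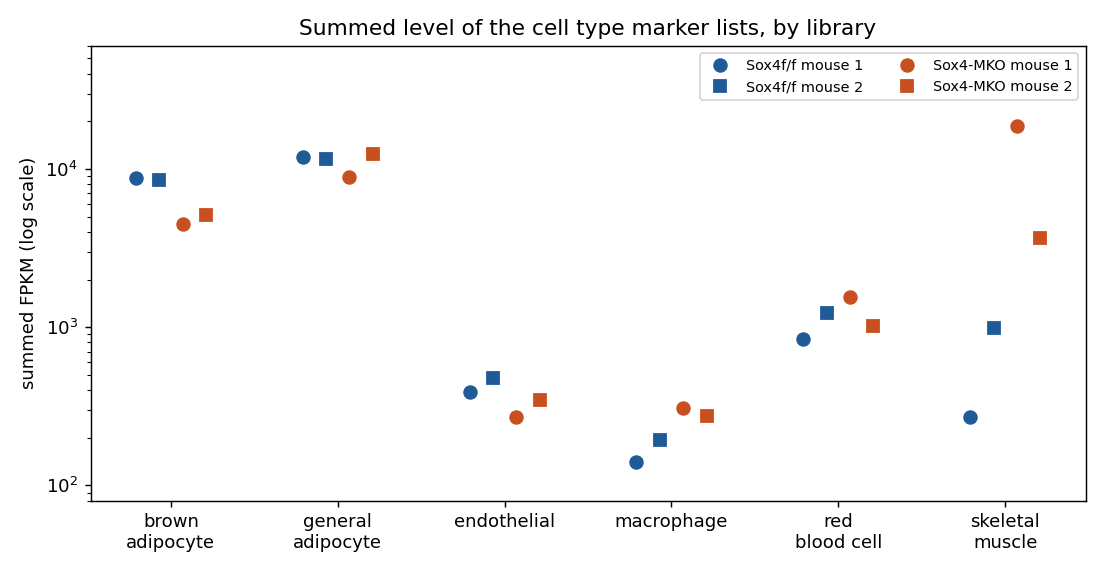
The summed FPKM of 6 marker lists is plotted on a log axis for the 4 libraries, circles for mouse 1 and squares for mouse 2 of each genotype. The skeletal muscle sums are farthest apart, from 271 in Sox4f/f mouse 1 to 18649 in Sox4-MKO mouse 1, while the general adipocyte sums overlap between the genotypes.

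The RefSeq promoter table (GRCm38.p6) held windows for 5 of the 10 genes, and the 250 bases before each start were searched on both strands for AGGTCA, the core of sites of nuclear receptors such as the PPARs, CCCNNGGG, a core of the sites of early B cell factors, and ACAAAG, a core of the sites of SOX proteins. Among 32851 windows of the same length, 14.0% held AGGTCA, 11.8% CCCNNGGG and 16.5% ACAAAG. Cd36 and Lmf1 are shown because the window of Cd36, whose mRNA overlapped between the genotypes, held matches to 2 of the searched motifs, and that of Lmf1, whose mRNA was lower, held 0. Both are printed along the strand of the gene, with matches in capitals and only the bases outside annotated exons, from chr5:17835897-17836146 (minus strand) and chr17:25578924-25579084 (plus strand).
Cd36: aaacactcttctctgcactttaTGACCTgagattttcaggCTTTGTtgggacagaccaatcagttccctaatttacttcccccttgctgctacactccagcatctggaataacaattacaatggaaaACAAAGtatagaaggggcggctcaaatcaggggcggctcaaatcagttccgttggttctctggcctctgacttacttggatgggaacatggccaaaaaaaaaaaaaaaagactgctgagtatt
Lmf1: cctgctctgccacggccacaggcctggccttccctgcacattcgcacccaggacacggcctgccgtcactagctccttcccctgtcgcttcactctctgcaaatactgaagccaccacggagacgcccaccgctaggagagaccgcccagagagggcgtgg
In Cd36, the AGGTCA match began 228 bases before the start and lay on the opposite strand, where it reads TGACCT, and the ACAAAG matches began 210 bases before it on the opposite strand, reading CTTTGT, and 123 bases before it on the gene's strand. Of the other windows, 1 of the 3 of Slc27a1 held CCCNNGGG at 246 bases before the start, and those of Fabp3 and Slc27a4 held none of these letters. The window of Cd36 lies inside the annotated gene, which on the minus strand begins at 17888801. It therefore belongs to an internal start, and the bases before the outermost start were not searched. A match is a description of the sequence and not a binding site.

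Lpl, which encodes the lipase, was among the most abundant mRNAs of the tissue, and 0.388% of tested genes had a higher mean in Sox4f/f. Its GRCm38 position is chromosome 8, 68880491 to 68907448, plus strand. Its level was 1223 and 848 FPKM in Sox4f/f and 1213 and 1137 FPKM in Sox4-MKO, with means of 1035 ± 265 and 1175 ± 53.5 FPKM (SD, n = 2). The ranges overlapped, with Sox4f/f mouse 2 below the other 3 libraries. Its log2 fold change was 0.21 (95% interval -0.35 to 0.76, limma adjusted p = 0.648), and it was -0.058 without Sox4f/f mouse 2.

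All 3 partners of LPL were lower in Sox4-MKO at the unadjusted threshold. Lmf1 (chromosome 17, from 25579085 to 25662826, plus strand), whose product lets newly made lipase fold in the endoplasmic reticulum, had 30.7 and 29.8 FPKM in Sox4f/f and 19.0 and 19.6 FPKM in Sox4-MKO. The 2 mice of a genotype lay within 1 FPKM of each other, and the genotypes did not overlap. Its log2 fold change was -0.62 (SE 0.12, 95% interval -0.93 to -0.31, limma unadjusted p = 0.00417, adjusted p = 0.196). The unadjusted p stayed under 0.05 in 16 of 17 alternative analyses. The exception was scaling to 10 general adipocyte genes, where the log2 fold change was -0.41 with an unadjusted p of 0.115. Of those 10 genes, 8 were lower and 2 higher in sign, and 3 were lower at the unadjusted threshold. Scaling to them is thus not independent of the genotype. Relative to 100 FPKM of the sum of that adipocyte list, Lmf1 had 0.258 and 0.258 FPKM in Sox4f/f and 0.212 and 0.159 FPKM in Sox4-MKO. The scaling used the geometric mean of the list instead. The largest part of the sum was Cfd, with 3847 and 3252 FPKM in Sox4f/f and 2725 and 5569 FPKM in Sox4-MKO.

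Angptl4 encodes a secreted inhibitor that inactivates LPL and lies on the minus strand of chromosome 17, from 33773750 to 33781830. It had 221 and 224 FPKM in Sox4f/f and 112 and 162 FPKM in Sox4-MKO, that is 223 ± 2.06 and 137 ± 35.4 FPKM (SD, n = 2). The Sox4f/f mice were close together and both Sox4-MKO mice lay below them, mouse 1 farthest. This gave a log2 fold change of -0.72 (SE 0.20, 95% interval -1.25 to -0.18, limma unadjusted p = 0.0189, adjusted p = 0.239). It was -0.45 without Sox4-MKO mouse 1, and the unadjusted p rose to 0.0954 without Sox4f/f mouse 1 and 0.101 without Sox4f/f mouse 2. Rescaling the libraries to a common FPKM sum without the skeletal muscle list gave -0.47 with an unadjusted p of 0.0799. The library sums also differed with that list kept, so this rescaling changes more than the muscle share. The adipocyte scaling gave a log2 fold change of -0.50 with an unadjusted p of 0.0556. Per 100 FPKM of the general adipocyte list, Angptl4 had 1.86 and 1.94 FPKM in Sox4f/f and 1.25 and 1.31 FPKM in Sox4-MKO.

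Gpihbp1, made by capillary endothelial cells, carries LPL to the vessel lumen and anchors it there. The gene lies on the plus strand of chromosome 15, from 75596628 to 75599481, and had 101 and 115 FPKM in Sox4f/f and 77.7 and 85.1 FPKM in Sox4-MKO. The genotypes did not overlap. The log2 fold change of -0.41 (SE 0.13, 95% interval -0.74 to -0.069, limma unadjusted p = 0.0276, adjusted p = 0.254) was the least stable of the 4 lower genes. Its unadjusted p was under 0.05 in 9 of 17 alternatives, and was 0.0536 without Sox4f/f mouse 1, 0.146 without Sox4f/f mouse 2 and 0.0819 without Sox4-MKO mouse 1. Rescaling without the skeletal muscle list gave a log2 fold change of -0.16. Relative to 100 FPKM of the 12 endothelial markers, Gpihbp1 had 26.0 and 24.2 FPKM in Sox4f/f and 28.6 and 24.7 FPKM in Sox4-MKO, so the genotypes overlapped on this scale. The largest part of that sum was Egfl7, itself lower, with 124 FPKM in both Sox4f/f mice and 78.5 and 72.7 FPKM in Sox4-MKO. The scale was chosen after values were seen and depends on the markers listed.

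Within a library, the balance of these genes with Lpl does not depend on how the library was scaled. The ratio of Angptl4 to Lpl was 0.181 and 0.264 in Sox4f/f and 0.0925 and 0.143 in Sox4-MKO, a 0.525-fold difference. The ratio of Gpihbp1 to Lpl was 0.0830 and 0.136 in Sox4f/f and 0.0641 and 0.0748 in Sox4-MKO, a 0.653-fold difference. Neither ratio overlapped between the genotypes. With 2 against 2 mice the exact two-sided permutation test cannot go below p = 0.333, which all 5 ratios examined reached.

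**Figure D3:**
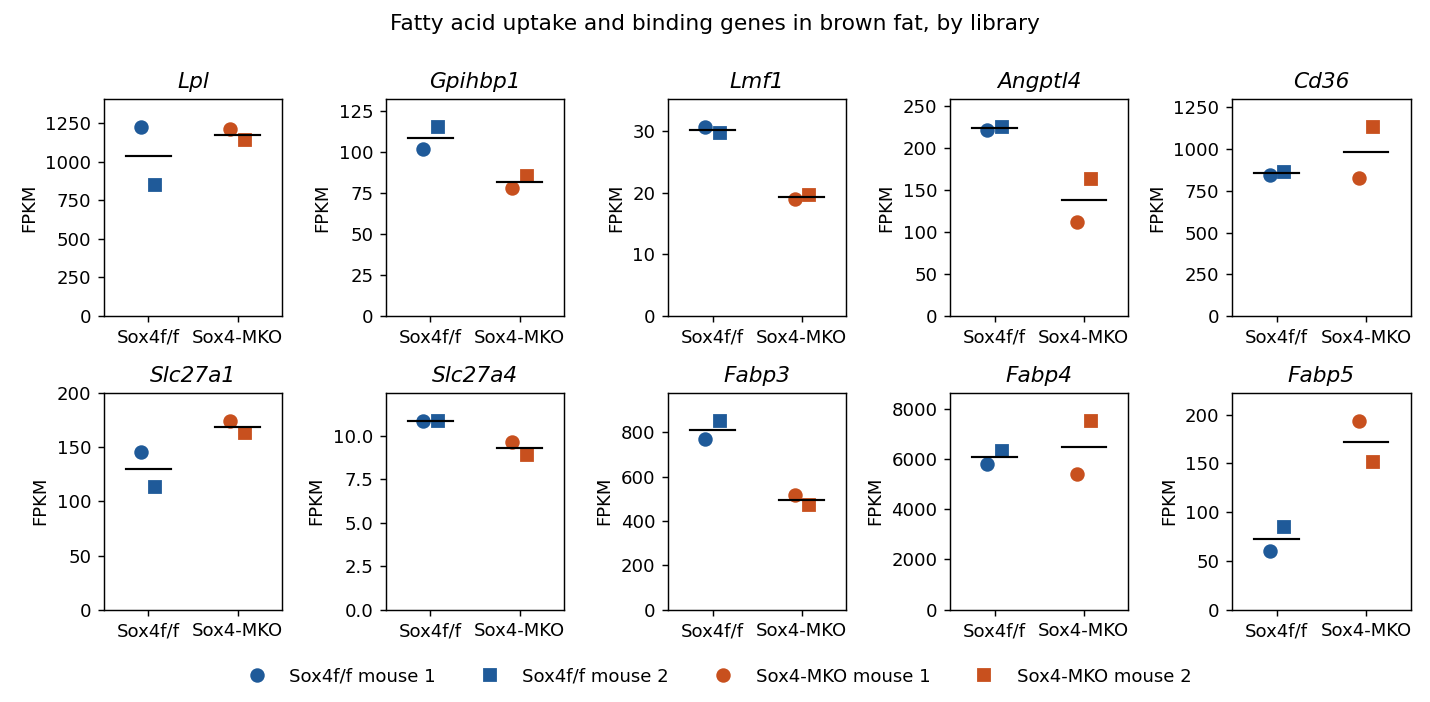
FPKM of each of the 10 genes is plotted on a linear axis from 0 for the 4 mice, with a line at the genotype mean (n = 2 mice per genotype, circles mouse 1 and squares mouse 2). The points of Lmf1, Angptl4, Gpihbp1 and Fabp3 lie lower in Sox4-MKO and those of Fabp5 higher, while the genotypes overlap for Lpl, Cd36 and Fabp4.

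Among the membrane proteins, Cd36, the fatty acid translocase, had 847 and 864 FPKM in Sox4f/f and 829 and 1131 FPKM in Sox4-MKO. The gene lies on the minus strand of chromosome 5, from 17781690 to 17888801. The ranges overlapped because the 2 Sox4-MKO mice fell on either side of the controls. The log2 fold change was 0.18 (95% interval -0.31 to 0.67, limma adjusted p = 0.656). Leaving out Sox4-MKO mouse 2 gave -0.046, and leaving out mouse 1 gave 0.40 with an unadjusted p of 0.0300.

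The transport proteins had fold changes of opposite sign. Slc27a1 (FATP1, chromosome 8, from 71568882 to 71587302, plus strand) had 146 and 114 FPKM in Sox4f/f and 175 and 163 FPKM in Sox4-MKO, with no overlap. Its log2 fold change of 0.39 had an interval that included 0 (95% interval -0.034 to 0.81, limma unadjusted p = 0.0638, adjusted p = 0.330). The unadjusted p was under 0.05 in 6 of 17 alternatives. Among them were the analysis without Sox4f/f mouse 1 (log2 fold change 0.57), the rescaling without the skeletal muscle list (0.63) and the adipocyte scaling (0.60), and without Sox4f/f mouse 2 the log2 fold change was 0.21. FATP1 is also a skeletal muscle protein, and the muscle markers were higher in both Sox4-MKO libraries. Their part in this result was not tested.

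Slc27a4 (FATP4, chromosome 2, from 29802634 to 29817522, plus strand) was the lowest of the 10 genes, with 10.8 FPKM in both Sox4f/f mice and 9.66 and 8.90 FPKM in Sox4-MKO. The mice of each genotype lay close together and did not overlap, but the log2 fold change of -0.20 (SE 0.14) had an interval from -0.57 to 0.16 and a limma adjusted p of 0.498. Its sign turned to 0.019 when the libraries were rescaled without the skeletal muscle list. The ratio of Slc27a1 to Slc27a4 within a library was 13.4 and 10.5 in Sox4f/f and 18.1 and 18.4 in Sox4-MKO, 1.53-fold higher and without overlap.

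The 3 cytosolic carriers had 3 different patterns. Fabp4, the adipocyte carrier, was the most abundant of the 10 genes, and 0.0466% of tested genes had a higher mean in Sox4f/f. It had 5801 and 6334 FPKM in Sox4f/f and 5416 and 7518 FPKM in Sox4-MKO. The Sox4-MKO mice again fell on either side of the controls. The log2 fold change of 0.074 (95% interval -0.48 to 0.63, limma adjusted p = 0.883) was -0.16 without Sox4-MKO mouse 2, and quantile normalization raised it to 0.88 with an unadjusted p of 0.043.

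Fabp3, the carrier typical of heart, muscle and brown fat, lies on the plus strand of chromosome 4, from 130308595 to 130315463. It had 772 and 852 FPKM in Sox4f/f and 515 and 474 FPKM in Sox4-MKO, that is 812 ± 56.6 and 495 ± 29.0 FPKM (SD, n = 2), with no overlap. Fabp3 thus had a log2 fold change of -0.71 (SE 0.12, 95% interval -1.04 to -0.38, limma unadjusted p = 0.00298, adjusted p = 0.196). In 16 of 17 alternatives the unadjusted p was under 0.05, and under the adipocyte scaling it was 0.0822 with a log2 fold change of -0.50. The muscle marker sums were higher in both Sox4-MKO libraries, and their part in this result was not tested. Per 100 FPKM of the 12 brown adipocyte markers, Fabp3 had 8.74 and 9.96 FPKM in Sox4f/f and 11.4 and 9.22 FPKM in Sox4-MKO, which overlapped. Of those markers 9 were themselves lower here at the unadjusted threshold. The paper also reports several of them as lower in this sequencing, so this scale is not independent of the result. Per 100 FPKM of the general adipocyte list Fabp3 had 6.49 and 7.39 FPKM in Sox4f/f and 5.75 and 3.84 FPKM in Sox4-MKO, which did not overlap. Of its 50-base words, 37.3% also occurred in the transcripts of 3 other annotated genes, chiefly the pseudogene Fabp3-ps1, which had at most 2.24 FPKM in any library.

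Fabp5, the epidermal carrier, which macrophages also make, lies on the plus strand of chromosome 3 from 10012548 to 10016607, 187480 bases from Fabp4, which lies from 10204088 to 10208576 on the minus strand. It had 59.7 and 84.4 FPKM in Sox4f/f and 193 and 151 FPKM in Sox4-MKO, that is 72.0 ± 17.4 and 172 ± 29.9 FPKM (SD, n = 2). Both Sox4-MKO mice lay well above both controls. Fabp5 had a log2 fold change of 1.26 (SE 0.22, 95% interval 0.66 to 1.85, limma unadjusted p = 0.00326, adjusted p = 0.196). It kept an unadjusted p under 0.05 in all 17 alternatives run, where it ranged from 1.01 to 1.50. Of its 50-base words, 21.1% also occurred in 5 processed pseudogenes, all at or under 0.702 FPKM.

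Macrophage markers moved with Fabp5. Their sum was higher in both Sox4-MKO libraries, as given above. Of the 11 tested, 10 were higher without overlap, beside 21.7% of all tested genes. Mpeg1 overlapped, with 6.66 and 9.31 FPKM in Sox4f/f and 6.95 and 12.5 FPKM in Sox4-MKO. Mrc1, a macrophage mannose receptor, had 4.98 and 7.84 FPKM in Sox4f/f and 16.0 and 14.2 FPKM in Sox4-MKO. Per 100 FPKM of the macrophage list, Fabp5 amounted to 42.3 and 43.6 FPKM in the controls and to 62.8 and 55.2 FPKM in Sox4-MKO, which did not overlap. Of the keratinocyte markers, Krt5, Krt1 and Dsp were at 0 in all libraries, and Krt14 was at 0 except for 0.108 FPKM in Sox4-MKO mouse 2. Trp63 was higher in both Sox4-MKO libraries and passed the limit for testing only through them, as given above. Krt10, which was too low to be tested, had 0.582 and 0.674 FPKM in Sox4f/f and 0.687 and 0.897 FPKM in Sox4-MKO, without overlap. The share that each cell type gave to Fabp5 was not tested.

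Set against Fabp4 in the same library, Fabp3 and Fabp5 went in opposite directions. The ratio of Fabp3 to Fabp4 was 0.133 and 0.134 in Sox4f/f and 0.0951 and 0.0631 in Sox4-MKO, a 0.579-fold difference. The ratio of Fabp5 to Fabp4 was 0.0103 and 0.0133 in Sox4f/f and 0.0357 and 0.0201 in Sox4-MKO, 2.29-fold higher. Of the summed FPKM of the 3 carriers, Fabp3 held 11.6% and 11.7% in Sox4f/f and 8.41% and 5.82% in Sox4-MKO. Fabp5 held 0.900% and 1.16% in Sox4f/f and 3.16% and 1.86% in Sox4-MKO, and Fabp4 held between 87.1% and 92.3% in every library.

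**Figure D4:**
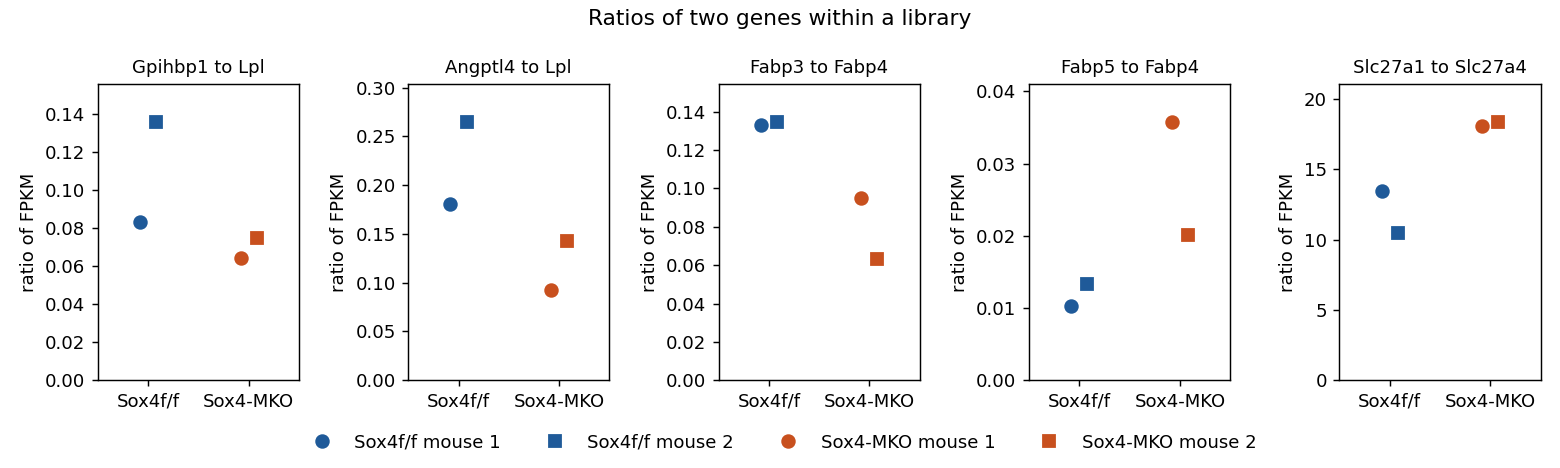
Ratios of FPKM within each of the 4 libraries are plotted on linear axes from 0, which removes the scaling of the library. Each of the 5 ratios is without overlap between the genotypes, with Slc27a1 to Slc27a4 and Fabp5 to Fabp4 higher and the other three lower in Sox4-MKO.

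By mean FPKM the order in Sox4f/f was Fabp4, Lpl, Cd36, Fabp3, Angptl4, Slc27a1, Gpihbp1, Fabp5, Lmf1 and Slc27a4. The ranges of Lpl and Cd36, of Cd36 and Fabp3 and of Slc27a1 and Gpihbp1 overlapped, so these neighbours did not differ beyond their spread. In Sox4-MKO the first 4 and the last 2 places were the same, while Fabp5 went from place 8 to 5, Angptl4 from 5 to 7 and Gpihbp1 from 7 to 8. There, Fabp5 overlapped with both Slc27a1 and Angptl4. In Sox4-MKO mouse 2 it lay below both, at 151 FPKM against 163 and 162 FPKM. The summed FPKM of the 10 genes, of which Fabp4 made up most, was 9213 and 9476 in Sox4f/f and 8559 and 10851 in Sox4-MKO, which overlapped.

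Other genes of the lipase system were examined as a list of 21, of which 16 were tested. By limma 2 were lower and 2 higher at an unadjusted p under 0.05, and the median log2 fold change was -0.083. Over all tested genes 8.28% were lower and 7.95% higher, with a median of -0.051. Apoe, a ligand for the receptors of remnant lipoproteins, had 2177 and 2155 FPKM in Sox4f/f and 1345 and 1414 FPKM in Sox4-MKO (log2 fold change -0.65, SE 0.12). Furin, a protease that can cleave LPL, had 38.0 and 36.2 FPKM against 26.0 and 29.0 FPKM (log2 fold change -0.42). Apoc3, an apolipoprotein that inhibits LPL, was low, at 2.11 and 2.46 FPKM in controls and 8.45 and 7.67 FPKM in Sox4-MKO (log2 fold change 1.47, SE 0.17, limma adjusted p = 0.191). Sdc1, a heparan sulfate proteoglycan, had 1.55 and 1.87 FPKM against 3.20 and 2.98 FPKM. Apoc3 kept an unadjusted p under 0.05 in all 17 alternatives, whereas Apoe lost it without either Sox4f/f mouse, Furin without either Sox4f/f mouse or Sox4-MKO mouse 1, and Sdc1 when any of the 4 mice was left out. Apoe also lost it with quantile normalization (log2 fold change -0.32, unadjusted p = 0.111), unlogged FPKM (0.132) and the adipocyte scaling (0.0921). Furin also lost it with the common sum without mitochondrially encoded genes and Ucp1 (0.0660), without the muscle list (log2 fold change -0.18, unadjusted p = 0.211) and with the adipocyte scaling (0.367). Sdc1 also lost it with quantile normalization, with no FPKM limit and with the mouse number as a block, where the unadjusted p was between 0.0566 and 0.0773.

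Of 15 other uptake genes 13 were tested, 2 lower and 1 higher, with a median log2 fold change of -0.050. The shares over all tested genes were 8.28% lower and 7.95% higher, and the median was -0.051. Slc27a2, a further transport protein with acyl-CoA synthetase activity, had 125 and 52.4 FPKM in Sox4f/f and 37.1 and 32.0 FPKM in Sox4-MKO (log2 fold change -1.21, SE 0.43). The controls were far apart, and the log2 fold change was -0.59 without Sox4f/f mouse 1 and -1.83 without mouse 2, and its unadjusted p was 0.05 or more without either Sox4-MKO mouse. Clstn3, which has an adipocyte isoform that acts on lipid droplets, had 232 and 288 FPKM against 97.7 and 182 FPKM (log2 fold change -0.95). Got2, a mitochondrial aminotransferase also described as a plasma membrane fatty acid binding protein, had 22.3 and 29.2 FPKM in Sox4f/f and 71.4 and 38.2 FPKM in Sox4-MKO. Sox4-MKO mouse 1 had the most muscle RNA by its markers, and the part of muscle in the level of Got2 was not tested. The log2 fold change of Got2 was 1.01, and 0.56 without this mouse. That of Clstn3 was -0.51 without the same mouse, and both lost an unadjusted p under 0.05 without it or without either control. Clstn3 also lost it with quantile normalization, the common sum and the rescaling without the muscle list (unadjusted p between 0.0650 and 0.0988), and Got2 with that block (0.0514) and unlogged FPKM (0.0916). Slc27a2 also lost it with no trended prior, unlogged FPKM and the rescaling without the muscle list (0.0508 to 0.124).

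Of 17 further intracellular lipid binding genes, 7 were tested, 0 lower and 1 higher, with a median log2 fold change of -0.11. Among all tested genes, 8.28% were lower and 7.95% higher, with a median of -0.051. The higher gene was Acbd4, an acyl-CoA binding protein, with 47.3 and 58.8 FPKM in Sox4f/f and 73.5 and 85.3 FPKM in Sox4-MKO (log2 fold change 0.58, SE 0.16), and its unadjusted p was 0.05 or more without Sox4f/f mouse 1 or Sox4-MKO mouse 2. Fabp2, Fabp6 and Fabp9, carriers of other tissues, were at 0 in all libraries.

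All 14 genes of a list of known regulators of these pathways were tested, 6 lower and 1 higher, with a median log2 fold change of -0.41. Beside this stand 8.28% lower and 7.95% higher, and a median of -0.051, over all tested genes. Ppara, a nuclear receptor for fatty acids with many targets among the genes of fatty acid use, had 115 and 130 FPKM in Sox4f/f and 57.7 and 66.4 FPKM in Sox4-MKO (log2 fold change -0.97, SE 0.14, limma adjusted p = 0.196). It kept an unadjusted p under 0.05 in all 17 alternatives. Pparg, the adipocyte receptor, had 197 and 155 FPKM against 127 and 153 FPKM (log2 fold change -0.32, 95% interval -0.79 to 0.14), which did not pass the threshold. Rxra, a partner of both, had 18.9 and 20.4 FPKM against 28.3 and 27.5 FPKM (log2 fold change 0.49), with the unadjusted p at 0.05 or more without Sox4f/f mouse 1.

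Among these regulators were genes that act on or in the endothelium. Tcf15, part of an endothelial transcription factor pair that drives fatty acid transport genes, had 19.5 and 29.3 FPKM in Sox4f/f and 13.1 and 13.3 FPKM in Sox4-MKO (log2 fold change -0.81, and -0.53 without Sox4f/f mouse 2). Vegfb, a growth factor linked to endothelial fatty acid uptake, had 145 and 123 FPKM against 90.6 and 85.6 FPKM (log2 fold change -0.60). The unadjusted p was 0.05 or more for Tcf15 without Sox4f/f mouse 2 or either Sox4-MKO mouse, and for Vegfb without Sox4f/f mouse 1. Under the adipocyte scaling it was 0.158 for Vegfb (log2 fold change -0.38) and 0.0695 for Tcf15, and for Tcf15 it was also 0.0675 without the muscle list and 0.0532 with unlogged FPKM. As to endothelial markers, Pecam1 overlapped between the genotypes, with 35.6 and 41.6 FPKM against 33.6 and 36.3 FPKM, and Egfl7, a secreted endothelial protein, did not, with 124 FPKM in both Sox4f/f mice against 78.5 and 72.7 FPKM in Sox4-MKO (log2 fold change -0.70, unadjusted p = 0.0798 under the adipocyte scaling). Ucp1, the uncoupling protein that defines brown adipocytes, had 1935 and 1814 FPKM against 733 and 1105 FPKM (log2 fold change -1.06, SE 0.23), with the unadjusted p at 0.0691 and 0.0523 without Sox4f/f mouse 1 and mouse 2, and at 0.0579 with quantile normalization (log2 fold change -0.73).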

How the data were processed

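RNA sequencing of brown fat from 2 Sox4f/f and 2 Sox4-MKO mice was analysed. The authors deposited FPKM per gene symbol (55387 rows). The submitters' notes name Cufflinks 2.1.1, Cuffdiff and mm10 and give no order, and the aligner and annotation are not given in the sources used here. The paper's methods give TRIzol and a TruSeq library, the labels a column kit and a stranded library. Genes whose FPKM averaged more than 1 in some genotype were tested with limma 3.58.1 (R 4.3.3, trended prior) on log2(FPKM + 1), two-sided, with genotype as the only term and Benjamini-Hochberg adjustment over all 12877. The paper names no test for its sequencing threshold of p under 0.05. The p-values set a difference against the spread between mice, which the trended prior estimates partly from other genes. In a test of the code with known answers, 93.5% of 200 genes changed by 1 (log2) among 12877 had an unadjusted p under 0.05, as had 4.64% of unchanged genes, and 0% passed adjustment.

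Lowest FPKM values of genes with a single transcript gave about 12200000 to 16300000 fragments per library, and at least 494 for any of the 10 genes (Lmf1 in Sox4-MKO mouse 1, counting error 4.50%). Positions are from GENCODE M21 (GRCm38) by symbol. Members and lists were chosen with earlier results of these data known, and scales per 100 FPKM of a marker list after values were seen. Of other genes, at most 3 per list and direction were named with values, those with the largest change among genes with an unadjusted p under 0.05 and no overlap, plus Ucp1, Pparg, Ppara and Pecam1. Figures were drawn with matplotlib 3.10.9.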

Additional observations from a re-analysis of the deposited data

How the results depend on the processing

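The alternatives were quantile normalization, a common median, a common sum without mitochondrially encoded genes and Ucp1, pseudocounts of 0.1 and 0.01, averaged FPKM limits of 0.1, 5 and none, the mouse number as a replicate block, leaving out each mouse, no trended prior and unlogged FPKM. Rescaling without the skeletal muscle list and scaling to 10 general adipocyte genes were added after seeing the data. With the muscle list kept, the FPKM of all rows summed to 578011 and 544564 in Sox4f/f and to 495145 and 472062 in Sox4-MKO. The rescaling without that list gives the libraries a common sum of the other rows, so it changes more than the muscle share. The median of all tested genes was -0.051 and moved to 0.16 and 0.14 under the added scalings. The genes called lower and higher, 1066 and 1024, became 745 and 1322 with a common sum without mitochondrially encoded genes and Ucp1, 268 and 2034 without the muscle list, and 137 and 1202 with the adipocyte scaling. The last called 1339 genes in all and 2 of the 10 genes, Fabp5 and Slc27a1. The median log2 fold change of the 10 genes turned to 0.096 with quantile normalization, 0.0035 with the common sum, 0.17 without the muscle list and 0.14 with the adipocyte scaling. Slc27a4 turned to 0.019 without the muscle list, and Pecam1 to 0.10 and 0.073 under the 2 added scalings. The cause was not tested.

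Leaving out each mouse gave 813 to 2258 genes called, of which 380 to 1015 lower and 433 to 1443 higher, and 0 to 4 after adjustment. Between 3 and 5 of the 10 genes were called, 0 after adjustment, and 8 to 9 had no overlap, since a lone mouse is compared. The 51.3% of all tested genes without overlap belongs to the comparison with every mouse kept. No such share was taken with a mouse left out, so nothing is read from the 8 to 9. The lone mouse is assumed to vary like the other genotype. The log2 fold change ranged from -0.058 to 0.47 for Lpl, -0.046 to 0.40 for Cd36, -0.16 to 0.31 for Fabp4 and -0.32 to 0.71 for Sox4. The replicate block called 1908 genes (938 lower, 970 higher), 0 after adjustment, and 5 of the 10, and changed no call among them. Same-numbered mice did not deviate together (correlation -0.012 over 12877 genes), so the numbers were not taken as pairs.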
